A study of Caenorhabditis elegans with 16 samples.

Results

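The 7 fatty acid desaturase genes *fat-1* to *fat-7* of *Caenorhabditis elegans* were followed at the RNA level in whole worms given a fat diet, an RNAi treatment, both or neither. They are the 7 genes that carry these names among the 19750 genes of the deposited table, a choice made by name but with earlier results of these data known. N2 wild-type worms were raised from the first larval stage on HT115 bacteria that carried either the empty vector (EV), which silences no gene, or double-stranded RNA against *ech-6*, an enoyl-CoA hydratase. Each was combined with vehicle (water) or with P-80, polysorbate 80, a soluble fat whose fatty acid is oleic acid, and about 500 whole worms were collected per sample on day 1 of adulthood. This gave 4 groups of 4 samples. EV + vehicle had neither treatment, *ech-6* RNAi + P-80 had both, and EV + P-80 and *ech-6* RNAi + vehicle had 1 of them. Worms on the empty vector are called control worms below and worms labelled *ech-6* RNAi are called silenced worms. RNAi by feeding lowers a transcript and does not delete the gene. The labels do not say whether the samples of a group came from separate cultures, so the p-values measure the spread between these samples, which may be technical. RNA was taken from whole animals, so a lower value can mean fewer cells of a type or less RNA per cell, and the 2 cannot be told apart.

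A desaturase puts a double bond into a fatty acid chain, with electrons passed on by cytochrome b5 and its reductase. In worms the products of *fat-5*, *fat-6* and *fat-7* put in the first bond. FAT-6 and FAT-7 turn stearic acid into oleic acid, the fatty acid that P-80 supplies, and FAT-5 turns palmitic acid into palmitoleic acid. FAT-2 then turns oleic acid into linoleic acid, FAT-1 makes the omega-3 fatty acids by adding a bond near the methyl end, and FAT-3 and FAT-4 add bonds near the carboxyl end on the way to the long polyunsaturated chains. These steps run mainly in the intestine and the hypodermis, and the results below follow their order.

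On the WBcel235 assembly, 5 of the 7 genes lie on chromosome IV. *fat-4* (WBGene00001396) runs from 9799429 to 9802226 and *fat-3* (WBGene00001395) from 9803023 to 9806119, both on the plus strand, with 796 bp between them. *fat-1* (WBGene00001393; 13315644 to 13318811) and *fat-2* (WBGene00001394; 13323873 to 13326395) are also plus-strand neighbours, 5061 bp apart. *fat-6* (WBGene00001398; 11913692 to 11915687) is on the minus strand of the same chromosome. *fat-7* (WBGene00001399; V, 7151353 to 7153146, minus strand) and *fat-5* (WBGene00001397; V, 17725004 to 17726818, plus strand) lie on chromosome V. *fat-6* and *fat-7* are close copies of each other. Reads that align to more than 1 place are not counted under the default settings of the counting program, so reads from stretches the 2 genes share may be lost. *fat-5* is overlapped on the opposite strand by *twk-42*, a potassium channel gene, and by W06D12.8, a noncoding RNA gene. Reads were counted by strand.

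Levels are given as CPM, the count of reads on a gene relative to all reads of the library, obtained by undoing the log2 of the deposited values, which the authors had scaled with edgeR's TMM method. Total reads on genes ranged from 15306307 to 28129104 per sample. Every member had reads in every sample: *fat-5* 6 to 102, *fat-7* 50 to 220, and each of the others at least 1846. Groups were compared on the log2 scale with limma's moderated test, and a gene is called changed where the p-value adjusted over all 19750 genes (Benjamini-Hochberg) is under 0.05. The gene silenced, *ech-6*, was lowered in 7 of the 8 libraries labelled as silenced. It stood at 181, 169, 165 and 164 CPM in EV + vehicle, 210.4, 237, 176 and 187 CPM in EV + P-80 and 63.1, 68.3, 72.3 and 61.0 CPM in *ech-6* RNAi + P-80 (replicates 1 to 4). In *ech-6* RNAi + vehicle it stood at 68.3, 66.4, 178 and 71.8 CPM, so the library labelled *ech-6* RNAi + vehicle replicate 3 was inside the range of EV + vehicle. Differences between groups that use that library are given with and without it.

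Cell type markers were read from the same libraries, and no marker was at 0 in a whole group. With P-80, markers of oocytes and embryos were higher in control worms for 5 of 8 genes (4 of 8 without replicate 3 of *ech-6* RNAi + vehicle, which shares the fit) and markers of sperm for 4 of 6. The summed oocyte and embryo markers ran from 1337 to 1621 CPM with vehicle and from 1582 to 2032 CPM with P-80, and the sperm markers from 375 to 441 CPM and from 442 to 530.1 CPM. Silenced worms had 1 of 8 and 3 of 6 higher with P-80, or 1 of 8 and 1 of 6 without that replicate. Of 7 intestinal markers measured, 1 was higher and 1 lower with P-80 in control worms, and likewise in silenced worms, with or without that replicate. The summed level in control worms was 1323 to 1387 CPM with vehicle and 1326 to 1591 CPM with P-80. In silenced worms it was 1255 to 1271 CPM with vehicle and 1367 to 1475 CPM with P-80, without overlap. With vehicle, the sums of silenced worms thus all lay below those of control worms. The 1 intestinal marker called between these groups, *mtl-2*, was instead higher in silenced worms (0.62 on the log2 scale, adjusted p = 0.0430). Without replicate 3 of *ech-6* RNAi + vehicle it was not called (0.65, adjusted p = 0.0681). Of 5 hypodermal markers 1 was higher and 3 were lower in control worms, and in silenced worms 2 were lower, or 0 without that replicate. The summed levels in control worms were 1194 to 1423 CPM with vehicle and 1554 to 1862 CPM with P-80. In silenced worms they were 1535 to 1736 CPM with vehicle and 1781 to 1871 CPM with P-80. With vehicle, these sums thus all lay above those of control worms. They mainly reflect *col-19*, by far the most abundant marker (mean log2 CPM 10.5). With P-80 in control worms *col-19* was higher (0.53 on the log2 scale). The lower ones there, *dpy-7*, *rol-6* and *col-10*, were at -1.95, -1.51 and -0.87. With *ech-6* RNAi and vehicle *col-19* was also higher (0.41, adjusted p = 0.00296), and it was still called without that replicate. Body muscle markers were higher with P-80 for 2 of 5 in control worms and 4 of 5 in silenced worms (1 of 5 without that replicate), and neuronal markers were lower for 2 of 5 in control worms. Over all genes, 6.97% were called higher and 9.14% lower with P-80 in control worms, and 2.63% and 4.58% in silenced worms. The part of these markers in the desaturase results was not tested.

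P-80 raised 3 of the 7 desaturase genes, *fat-5*, *fat-3* and *fat-1*, in control worms and in silenced worms alike, and lowered none. The rises were 5.29-fold, 1.86-fold and 1.24-fold in control worms and 7.95-fold, 1.65-fold and 1.28-fold in silenced worms. The genes for the enzymes that make oleic acid, *fat-6* and *fat-7*, did not pass the test in either. Of the 19750 genes, 6.97% rose and 9.14% fell in control worms (1377 and 1805 genes), while 2.63% rose and 4.58% fell in silenced worms (519 and 905 genes). That split depends on the scaling: after subtracting its own all-gene median from each sample it became 2361 up and 1361 down in control worms and 1033 up and 756 down in silenced worms. This centring also moved the median log2 fold change of all genes away from 0, to 0.084 and 0.069. After quantile normalization the split was 1676 up and 1686 down in control worms and 620 up and 791 down in silenced worms. The median log2 fold change of the 7 members was 0.31 in control and 0.35 in silenced worms, against -0.0025 and -0.017 over all genes. For *fat-1*, *fat-3* and *fat-5* every P-80 sample lay above every vehicle sample on both RNAi treatments, as in 8.2% of all genes in control worms and 4.85% in silenced worms. These 6 calls held without replicate 3 of *ech-6* RNAi + vehicle and under each alternative tried.

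**Figure D1:**
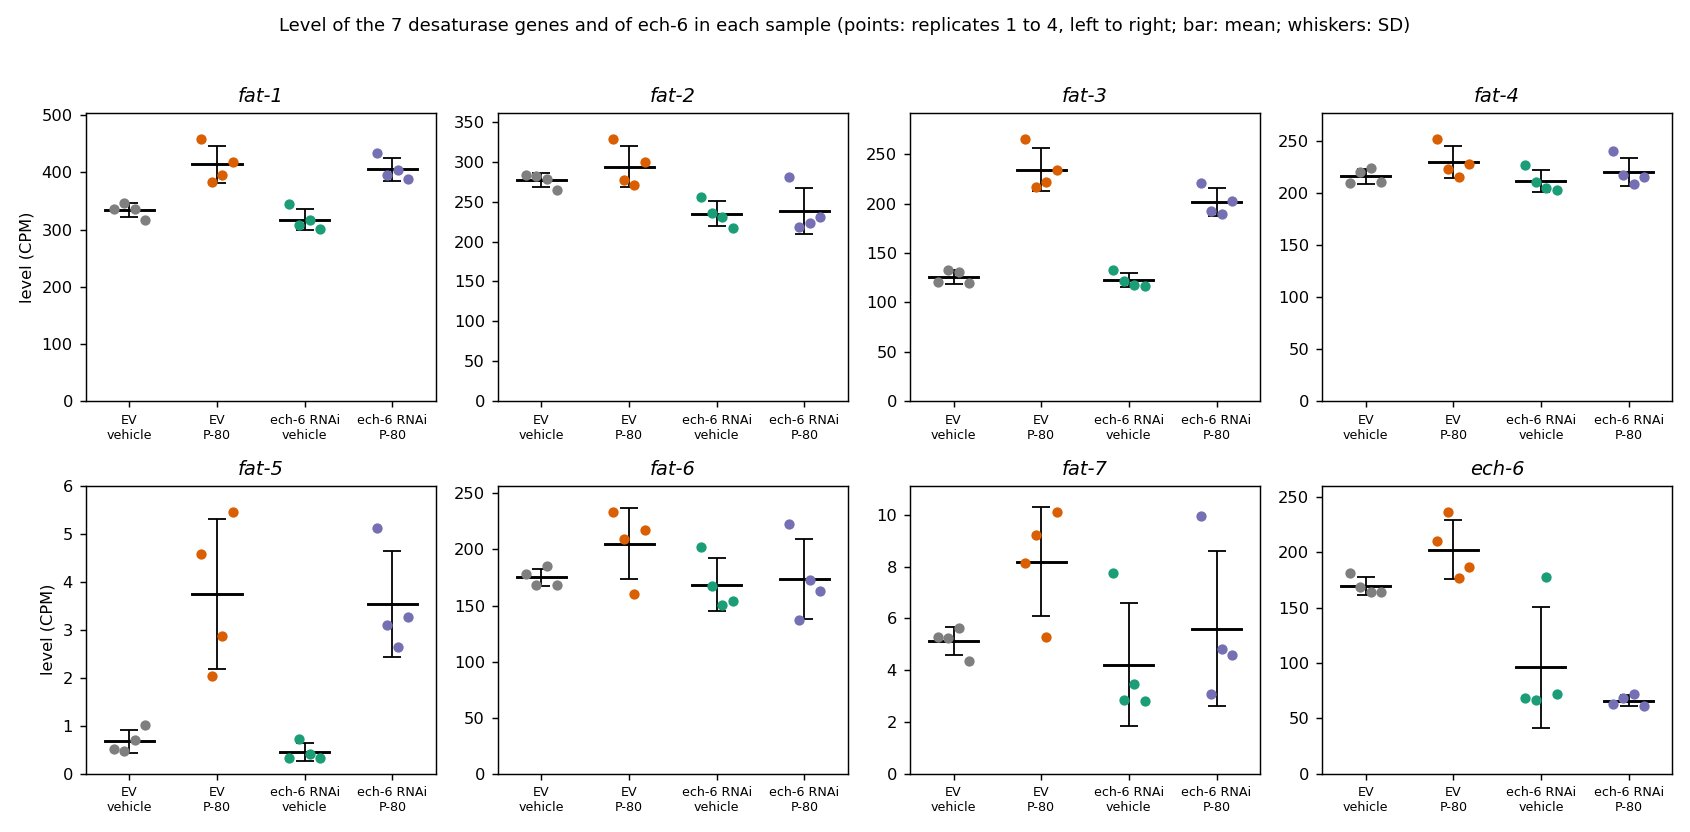
Level in CPM (vertical axes, from 0, each gene on its own scale) of the 7 desaturase genes and of ech-6 in the 4 groups; points are samples, replicate 1 to 4 from left to right, bars are means and whiskers SD (n = 4). The P-80 points of fat-1, fat-3 and fat-5 lie above all vehicle points of the same RNAi, and 1 ech-6 RNAi + vehicle point of ech-6, at 178 CPM, lies with the EV samples.

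Among the genes that put in the first bond, *fat-5* changed most in proportion and is the least abundant. It stood at 0.521, 0.475, 0.697 and 1.01 CPM in EV + vehicle (replicates 1 to 4) and at 4.59, 2.03, 2.88 and 5.46 CPM in EV + P-80. These values rest on 8, 10, 19 and 17 reads and on 75, 46, 65 and 102 reads. All P-80 samples were above all vehicle samples, although the 4 P-80 samples themselves differed by more than 2-fold. The log2 fold change was 2.40 (SE 0.33, adjusted p = 1.15e-04 from limma, higher in 4 of 4 samples). Silenced worms had 0.317, 0.721, 0.403 and 0.335 CPM with vehicle and 5.13, 3.11, 2.63 and 3.27 CPM with P-80. Again the groups did not overlap, and the log2 fold change was 2.99 (SE 0.33, adjusted p = 1.80e-05). Without replicate 3 of *ech-6* RNAi + vehicle it was 2.97 (adjusted p = 1.44e-04). Because the gene is low, the size depends on the constant added before the log: with log2(CPM + 1) it was 1.45 in control and 1.63 in silenced worms, both still called. *twk-42*, which overlaps *fat-5* on the other strand, went from 6.65 ± 0.892 CPM (SD, n = 4) with vehicle to 8.48 ± 0.724 CPM with P-80 in control worms. The log2 fold change was 0.36 (adjusted p = 0.0280). In silenced worms *twk-42* stood at 7.16, 7.81, 5.99 and 6.64 CPM with vehicle and 8.29, 8.52, 8.35 and 8.94 CPM with P-80. These groups did not overlap, and the log2 fold change was 0.31 (adjusted p = 0.0908). It was not refitted without replicate 3 of *ech-6* RNAi + vehicle.

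*fat-6*, the more abundant of the 2 stearic acid desaturase genes, was even in EV + vehicle and scattered in the other groups. It stood at 178, 169, 185 and 169 CPM in EV + vehicle and at 233, 209.6, 160.4 and 217 CPM in EV + P-80. Replicates 1, 2 and 4 of EV + P-80 were above all vehicle samples and replicate 3 was below them. The log2 fold change of 0.22 did not pass the test (adjusted p = 0.264, 95% interval -0.041 to 0.47). The levels in silenced worms were 202, 167, 151 and 154 CPM with vehicle and 222, 137, 173 and 163 CPM with P-80, and the groups overlapped over most of their range. The log2 fold change there was 0.035 (adjusted p = 0.926, 95% interval -0.22 to 0.29), and -0.016 without replicate 3 of *ech-6* RNAi + vehicle.

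*fat-7*, its close copy, was far lower. It stood at 5.28, 5.23, 5.65 and 4.36 CPM in EV + vehicle and 8.14, 9.23, 5.27 and 10.1 CPM in EV + P-80. Replicate 3 of EV + P-80, which was also the lowest for *fat-6*, was the only one inside the vehicle range. The log2 fold change of 0.64 (SE 0.32, 95% interval -0.023 to 1.30) did not pass the test (adjusted p = 0.193), but did when only these 8 samples were fitted (adjusted p = 0.0359). Silenced worms had *fat-7* at 7.76, 2.84, 3.45 and 2.79 CPM with vehicle and 9.96, 3.06, 4.81 and 4.59 CPM with P-80. In both of these groups replicate 1 was more than 2-fold above the other samples, and the P-80 difference of 0.41 did not pass the test (95% interval -0.25 to 1.08). It ranged from 0.092 to 0.75 over the alternatives, and was 0.37 without replicate 3 of *ech-6* RNAi + vehicle. Counted as 1 gene, with their CPM summed, *fat-6* and *fat-7* gave log2 fold changes of 0.23 (adjusted p = 0.250) with P-80 in control worms and 0.044 (adjusted p = 0.906) in silenced worms (-0.0068 without replicate 3 of *ech-6* RNAi + vehicle). The first of these passed without replicate 3 of EV + P-80 (0.35, adjusted p = 0.0493).

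Divided by length, the 3 genes took very unequal shares of their summed level. In control worms *fat-6* made up 96.7% ± 0.107 (SD, n = 4) with vehicle and 94.3% ± 0.870 with P-80. *fat-7* made up 2.93% ± 0.232 and 3.86% ± 0.629, and *fat-5* 0.396% ± 0.152 and 1.80% ± 0.622. Within silenced worms *fat-5* went from 0.276% ± 0.123 with vehicle to 2.03% ± 0.350 with P-80, and *fat-6* from 97.3% ± 0.880 to 94.96% ± 1.06. So with P-80 the share of *fat-6* was lower and that of *fat-5* higher, and *fat-6* still held over 93% in each sample. The share of *fat-7* in silenced worms was 2.42% ± 0.963 with vehicle and 3.01% ± 0.914 with P-80, and these groups overlapped (exact permutation p = 0.457). For each of the 4 shifts of *fat-5* and *fat-6*, and for *fat-7* in control worms, the groups did not overlap and the two-sided exact permutation test gave p = 0.0286, the smallest it allows with 4 against 4. Adjusted over the 12 tests made on shares, this is 0.0686, which does not pass 0.05. With that lowest possible p, the adjusted value depends on how many of the 12 tests reach it. The shares of a sample add up to the whole, so these tests are not independent of each other. In silenced worms the vehicle shares without replicate 3 were 0.277%, 97.3% and 2.46% for *fat-5*, *fat-6* and *fat-7* (n = 3). *fat-5* and *fat-6* were still apart from P-80, with an exact permutation p of 0.0571, the smallest that 4 against 3 allows.

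**Figure D2:**
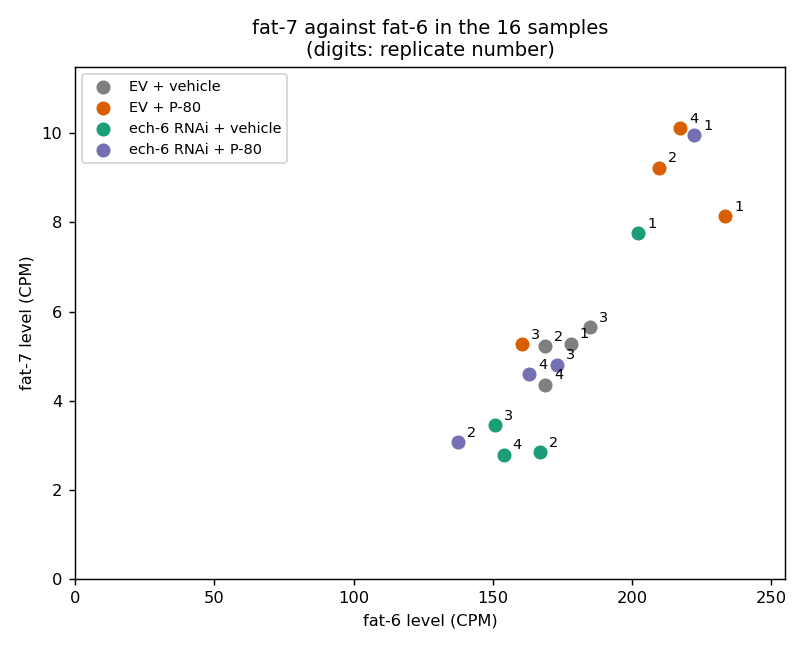
Level of fat-7 against fat-6 in CPM (both axes from 0) in the 16 samples, coloured by group, with the replicate number beside each point. Samples high in fat-6 are high in fat-7; replicate 1 of both ech-6 RNAi groups, at 7.76 and 9.96 CPM of fat-7, lies with the EV + P-80 samples, while replicate 3 of EV + P-80, at 5.27 CPM, lies with EV + vehicle.

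*fat-2*, whose enzyme acts next on oleic acid, had no called P-80 change. It stood at 284, 282, 278 and 265 CPM in EV + vehicle and 328, 278, 271 and 299 CPM in EV + P-80, a log2 fold change of 0.082 (95% interval -0.069 to 0.23). In silenced worms it stood at 256, 236, 231 and 217 CPM with vehicle and 281, 218, 223 and 231 CPM with P-80, a log2 fold change of 0.013 (95% interval -0.14 to 0.16), or 0.0047 without replicate 3 of *ech-6* RNAi + vehicle. Its group means were lower in both silenced groups than in both control groups, as described with the RNAi comparisons.

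*fat-1*, the gene beside it on the chromosome, rose. It stood at 336, 346, 336 and 317 CPM in EV + vehicle and 458, 382, 396 and 419 CPM in EV + P-80. The lowest P-80 sample was above the highest vehicle sample, and the log2 fold change was 0.31 (SE 0.0540, adjusted p = 8.92e-04). In silenced worms it stood at 344, 309, 316 and 301 CPM with vehicle and 434, 395, 404 and 389 CPM with P-80. The groups were again apart, with a log2 fold change of 0.35 (SE 0.0540, adjusted p = 6.94e-04). Without replicate 3 of *ech-6* RNAi + vehicle it was 0.35 (adjusted p = 0.00345).

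*fat-3* showed the largest rise among the abundant genes. It stood at 120.2, 132, 130.4 and 119.5 CPM in EV + vehicle and 265, 216, 222 and 234.6 CPM in EV + P-80. The groups were far apart, and the log2 fold change was 0.90 (SE 0.0635, adjusted p = 2.17e-08). In silenced worms it stood at 133, 122, 118 and 117 CPM with vehicle and 221, 193, 189.6 and 203 CPM with P-80. The log2 fold change there was 0.72 (SE 0.0635, adjusted p = 6.37e-07), and 0.70 without replicate 3 of *ech-6* RNAi + vehicle.

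*fat-4*, 796 bp upstream of *fat-3* and coding for the enzyme of a later step, was not called. It stood at 209, 219.7, 224 and 211 CPM in EV + vehicle and 251, 223, 215 and 228 CPM in EV + P-80. The groups overlapped, and the log2 fold change of 0.085 (95% interval -0.025 to 0.19) did not pass the test (adjusted p = 0.311). In silenced worms it stood at 226, 210.2, 204 and 203 CPM with vehicle and 239.6, 217, 209 and 215 CPM with P-80, a log2 fold change of 0.059 (95% interval -0.05 to 0.17), or 0.045 without replicate 3 of *ech-6* RNAi + vehicle. Over the 4 groups *fat-4* was the most even of the 7 genes, with group means from 211 to 229 CPM.

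**Figure D3:**
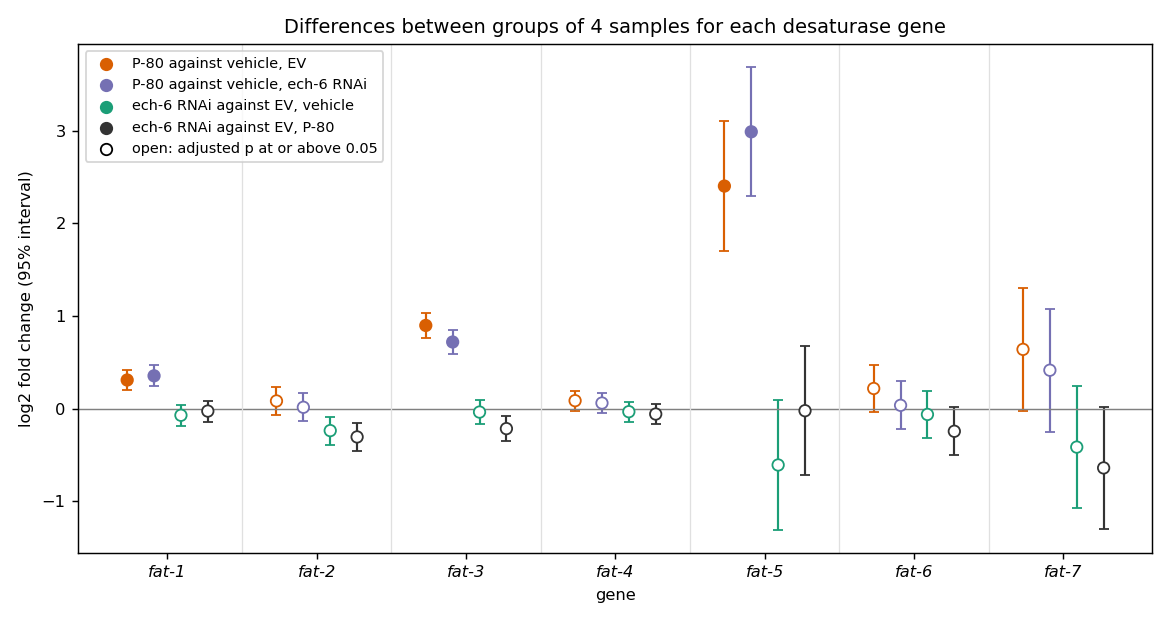
Log2 fold change (vertical axis) of each desaturase gene in 4 comparisons of 4 against 4 samples, with 95% intervals of limma's moderated test; filled points have an adjusted p under 0.05 and open points do not. The filled points are the P-80 comparisons of fat-1, fat-3 and fat-5, and the open ech-6 RNAi points of fat-2 lie at -0.24 and -0.31.

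The unequal change of neighbours showed in each library as a ratio that does not depend on library scaling. These pairs were picked after the values were seen, so the ratios are given without a test. Per kb of exon, *fat-3* stood at 59.3, 62.2, 60.1 and 58.6% of *fat-4* in EV + vehicle and at 109, 100.4, 107 and 106% in EV + P-80. In silenced worms it stood at 60.6, 59.9, 59.6 and 59.4% with vehicle and at 95.1, 92.0, 93.8 and 97.5% with P-80. The vehicle groups lay near 60%, the 2 P-80 groups were above them without overlap, and *ech-6* RNAi + P-80 lay below EV + P-80, also without overlap (a log2 difference of -0.16). Per kb, *fat-1* stood at 105, 109, 107 and 106% of *fat-2* with vehicle and 124, 122, 129.8 and 124% with P-80 in control worms. In silenced worms it was 116 to 123% with vehicle and 137, 161, 160.5 and 149.6% with P-80. This ratio was higher with P-80 in both backgrounds, by log2 differences of 0.23 and 0.34, and higher with *ech-6* RNAi on both diets, by 0.17 and 0.28, with no overlap in any of the 4. Without replicate 3 of *ech-6* RNAi + vehicle the differences that use it were 0.35 with P-80 and 0.16 with RNAi, and that of *fat-3* to *fat-4* with P-80 was 0.66, each still without overlap.

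**Figure D4:**
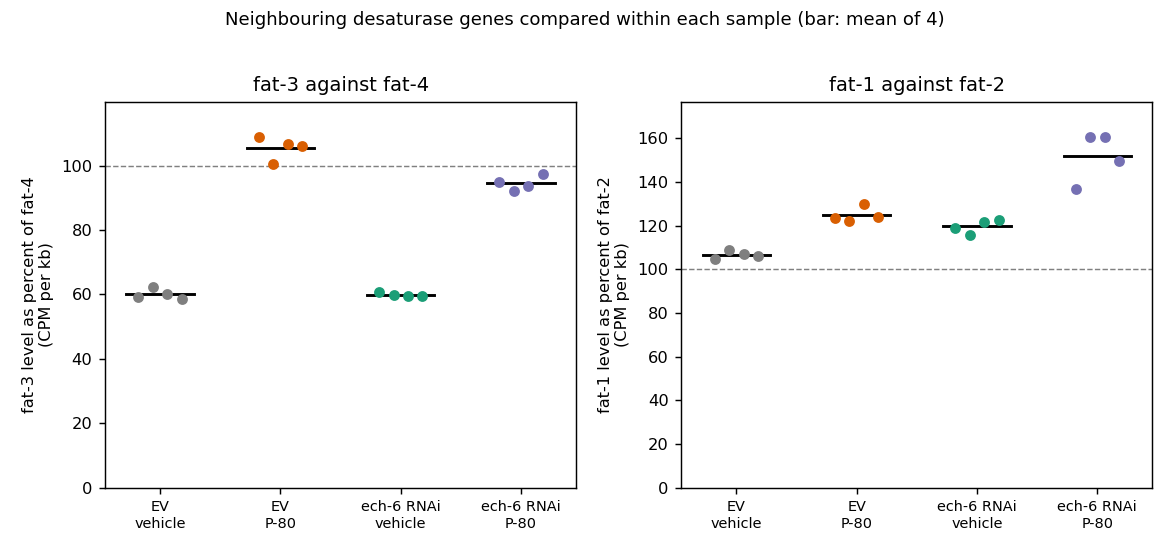
Level of fat-3 as a percentage of fat-4 (left) and of fat-1 as a percentage of fat-2 (right), per kb of exon, in each sample of the 4 groups; bars are means of 4 and the dashed line marks equal levels. The fat-3 ratio is near 60% in both vehicle groups and 92.0% to 109% with P-80, and the fat-1 ratio reaches 161% in ech-6 RNAi + P-80.

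No desaturase gene was called between silenced and control worms on either diet, where 2.94% of all genes were called with vehicle and 0.699% with P-80. At an unadjusted p under 0.05 there was 1 member with vehicle, *fat-2*, and there were 2 with P-80, *fat-2* and *fat-3*. Of all 19750 genes, 3656 with vehicle and 2037 with P-80 were under that threshold. Whether the members differ from all genes in this was not tested. The nearest to a call was *fat-2*, whose mean was 277 ± 8.77 CPM (SD, n = 4) in control and 235.2 ± 16.1 CPM in silenced worms with vehicle, and 294 ± 25.98 CPM and 238 ± 29.2 CPM with P-80. The log2 fold changes were -0.24 (SE 0.0722, adjusted p = 0.0810) and -0.31 (SE 0.0722, adjusted p = 0.0537). With vehicle all silenced samples lay below all control samples, as in 7.11% of all genes. With P-80, replicate 1 of the silenced worms overlapped the control worms, while 2.06% of all genes were lower without overlap. The 2 comparisons passed the threshold under 4 and 6 of 26 alternatives. Without replicate 1 of *ech-6* RNAi + P-80 the values were -0.24 (adjusted p = 0.0307) and -0.39 (adjusted p = 0.00317). The second also passed without replicate 3 of EV + P-80 (-0.35, adjusted p = 0.0430) and without replicate 1 of *ech-6* RNAi + vehicle (-0.31, adjusted p = 0.0468). Without replicate 3 of *ech-6* RNAi + vehicle the first was -0.23 (adjusted p = 0.152).

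The other members had adjusted p-values of 0.15 or more in these comparisons. With P-80, *fat-3* was at 202 ± 13.9 CPM (SD, n = 4) in silenced and 234.7 ± 21.9 CPM in control worms, a log2 fold change of -0.22 (SE 0.0635, adjusted p = 0.153). With vehicle its difference was -0.038 (95% interval -0.17 to 0.095). *fat-5* was at -0.61 with vehicle, on 6 to 18 reads against 8 to 19 (95% interval -1.31 to 0.089), and at -0.024 with P-80. *fat-6* gave -0.064 and -0.25, and *fat-7* -0.42 and -0.64, with a 95% interval of -1.30 to 0.021 for the last. *fat-1* gave -0.073 and -0.028, and *fat-4* -0.034 and -0.06. The vehicle values without replicate 3 of *ech-6* RNAi + vehicle were -0.021 for *fat-3*, -0.59 for *fat-5*, -0.014 for *fat-6*, -0.37 for *fat-7*, -0.072 for *fat-1* and -0.02 for *fat-4*. The median over the 7 genes, all samples included, was -0.073 with vehicle and -0.22 with P-80, against 1.59e-05 and -0.0099 over all genes.

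Whether P-80 acted differently in the 2 backgrounds was tested directly as an interaction, the P-80 difference in silenced worms minus that in control worms. No member passed, and none had an unadjusted p under 0.05. Over all genes limma called 0 (0.0%), with 1168 at an unadjusted p under 0.05, and also 0 after quantile normalization or centring. For *fat-3* the interaction was -0.18 (SE 0.0899, 95% interval -0.37 to 0.0092) and for *fat-5* 0.59 (95% interval -0.40 to 1.58). For *fat-1* it was 0.045 (95% interval -0.11 to 0.21), for *fat-6* -0.18 (-0.55 to 0.18) and for *fat-7* -0.23 (-1.16 to 0.71). Leaving out replicate 3 of *ech-6* RNAi + vehicle, the interactions were -0.20 for *fat-3*, 0.57 for *fat-5*, 0.044 for *fat-1*, -0.23 for *fat-6* and -0.27 for *fat-7*, with adjusted p-values of 0.793 or more. The intervals of *fat-5* and *fat-7* over all samples are wide enough to hold a 2-fold difference between backgrounds.

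The order of the groups followed from these values. From high to low, the means of *fat-1*, *fat-3* and *fat-5* came in the order EV + P-80, *ech-6* RNAi + P-80, EV + vehicle, *ech-6* RNAi + vehicle, and only the step between *ech-6* RNAi + P-80 and EV + vehicle passed the test (adjusted p = 6.69e-04, 6.30e-07 and 4.56e-05). For *fat-2* both control groups came before both silenced groups, P-80 first in each, and only the step between EV + vehicle and *ech-6* RNAi + P-80 passed (-0.23 on the log2 scale, adjusted p = 0.0269). That call is the least firm of these. It was lost when each sample was centred on its median (-0.10, adjusted p = 0.358), without a mean-variance trend (0.0748), without replicate 1, 2 or 3 of EV + vehicle (adjusted p = 0.0710, 0.0546 and 0.0528) and without replicate 2, 3 or 4 of *ech-6* RNAi + P-80 (0.0979, 0.0675 and 0.0671). For *fat-4*, *fat-6* and *fat-7* no step between neighbours passed.

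Worms given both treatments thus differed from untreated worms in 4 members, *fat-1*, *fat-3* and *fat-5* upward and *fat-2* downward, in a comparison that called 25.4% of all genes. Centring moved the median of all genes in that comparison from -0.016 to 0.11 on the log2 scale. It turned the calls from 2265 up and 2758 down into 4516 up and 1932 down. Worms given only the RNAi differed from worms given only P-80 in 4 members, *fat-1*, *fat-2*, *fat-3* and *fat-5*, all lower, where 3.17% of all genes were called. The log2 fold changes were -0.38, -0.32, -0.94 and -3.01. Leaving out replicate 3 of *ech-6* RNAi + vehicle gave -0.38 for *fat-1*, -0.92 for *fat-3* and -2.996 for *fat-5*, all still called, while *fat-2* no longer passed (-0.31, adjusted p = 0.0516), nor did it without replicate 4 of the same group (0.0756), without replicate 1 of EV + P-80 (0.0720) or without a mean-variance trend (0.0881). *fat-7* stood at -1.06 in this comparison (adjusted p = 0.0818). It passed without replicate 1 of *ech-6* RNAi + vehicle (-1.40, adjusted p = 0.00657), replicate 3 of EV + P-80 (-1.25, adjusted p = 0.0316) or replicate 1 of *ech-6* RNAi + P-80 (-1.06, adjusted p = 0.0356). It did not pass when replicate 3 of *ech-6* RNAi + vehicle was left out, at -1.01 (adjusted p = 0.199). *fat-6* and *fat-7* summed stood at -0.30 (adjusted p = 0.247), at -0.25 (adjusted p = 0.483) without that library, and passed without replicate 3 of EV + P-80 (-0.42, adjusted p = 0.0482). Both comparisons share their samples with those above.

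Levels of different genes were compared per kb of exon. In EV + vehicle *fat-1* stood at 236 ± 8.56 CPM per kb (SD, n = 4), *fat-2* at 221 ± 6.99, *fat-6* at 150.1 ± 6.78, *fat-4* at 140.2 ± 4.65 and *fat-3* at 84.2 ± 4.52 CPM per kb. *fat-7* stood at 4.55 ± 0.485 and *fat-5* at 0.613 ± 0.222 CPM per kb. The order *fat-1*, *fat-2*, *fat-6*, *fat-4*, *fat-3*, *fat-7* and *fat-5* was the same in both vehicle groups. In EV + P-80 *fat-3* stood at 157 ± 14.7 CPM per kb, above *fat-4* at 149 ± 10.2 CPM per kb, while in *ech-6* RNAi + P-80 it remained just below.

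The members deviated from their group means in the same direction in many samples. On deviations from the group means over the 16 samples, all 21 pairs had a positive Pearson's r, and for 15 the permutation p adjusted over the 21 pairs was under 0.05. By Spearman's rho 20 pairs were positive and 12 passed. With replicate 3 of *ech-6* RNAi + vehicle left out, 12 pairs passed by r and 10 by rho. The closest were *fat-3* with *fat-4* (r = 0.94, rho = 0.89, permutation p = 2.00e-04 and 2.20e-04, adjusted p = 0.00315 and 0.00462). Then came *fat-6* with *fat-7* (r = 0.89, permutation p = 0.00296, adjusted p = 0.00816; rho = 0.87, permutation p = 0.00209, adjusted p = 0.00878). Without the 2 samples farthest from the median of the first gene, r was 0.90 and 0.84. The 6 pairs that did not pass by r are those of *fat-5*, whose r ran from 0.061 with *fat-7* (rho = -0.11) to 0.41 with *fat-2*. By rho, *fat-3* with *fat-6* (0.51, adjusted p = 0.122), *fat-3* with *fat-7* (0.45, adjusted p = 0.170) and *fat-4* with *fat-7* (0.51, adjusted p = 0.122) did not pass the permutation test either. Replicate 1 had the highest value for 7 of the 7 genes in *ech-6* RNAi + P-80, 6 of 7 in *ech-6* RNAi + vehicle and 5 of 7 in EV + P-80, but 1 of 7 in EV + vehicle. All genes of a library share its RNA extraction, its depth and its scaling, and the part of these in the correlations was not tested. The same counts were not made for other genes, so they do not show that varying together is particular to the desaturases.

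Among 13903 other genes averaging at least 1 CPM, the 2 whose log2 levels over the 16 samples were most like each member were looked up as a description. For *fat-3* they were *asm-2*, an acid sphingomyelinase gene (r = 0.98), and *pcp-1*, a prolyl carboxypeptidase-like gene (r = 0.97). For *fat-1* they were *asah-1*, an acid ceramidase gene (r = 0.97), and *cpr-5*, a cathepsin B-like protease gene (r = 0.97). For *fat-5* they were F40F8.5 (r = 0.94) and *dhrs-4*, a short-chain dehydrogenase gene (r = 0.94). Those of *fat-2* were *tag-10* and *ctsa-1*, a cathepsin A-like gene (r = 0.95 and 0.93). Those of *fat-6* were ZK616.3 and K03H6.2 (r = 0.88 and 0.87), and K03H6.2 was also the first for *fat-7* (r = 0.92), followed by C32H11.4 (r = 0.90). *fat-4* had no gene above 0.88, with Y119D3B.13 and C49G7.3 the nearest. The 16 points include 4 groups, so a gene that moves with P-80 will resemble a member that does.

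Other genes of the pathway were read from lists drawn up by function. Of 41 genes in 6 lists, 9 rose and 5 fell with P-80 in control worms, and 2 and 2 in silenced worms. Over all genes 6.97% rose and 9.14% fell in control worms, and 2.63% and 4.58% in silenced worms. Of the 5 genes that supply electrons, the cytochrome b5 genes and their reductases, 1 rose in control worms: *hpo-19*, a reductase gene, by 0.24 on the log2 scale (adjusted p = 0.00407), and none in silenced worms. The medians of this list were 0.12 and 0.0059. Of the 4 genes that make the saturated substrates, *pod-2*, the acetyl-CoA carboxylase gene, rose by 0.21 with P-80 in control worms (adjusted p = 6.82e-04) and by 0.23 with *ech-6* RNAi and vehicle (adjusted p = 0.00119). The fatty acid synthase gene *fasn-1* gave -0.11 in control worms (adjusted p = 0.0657), and the median of the 4 was 0.0011.

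The elongases, which lengthen the chains between desaturation steps, had the most calls of the 6 lists with P-80 in control worms. Of 12 elongase and partner genes 5 rose and 1 fell with P-80 in control worms, with a median of 0.11. *elo-2*, which acts on palmitic acid, rose by 0.49 (SE 0.0466, adjusted p = 1.80e-06), *elo-5*, which serves branched-chain fatty acids, by 0.34, and *elo-8* by 0.33. Among silenced worms none rose with P-80 and *elo-3* fell by 0.29 on the log2 scale (adjusted p = 0.00475), as it had in control worms (-0.27). With P-80, *elo-2*, *elo-5* and *elo-6* were lower in silenced than in control worms (-0.37, -0.29 and -0.26), and *elo-6* was no longer called without replicate 3 of *ech-6* RNAi + vehicle (adjusted p = 0.0590). The interaction of *elo-2* was -0.44 (adjusted p = 0.0511, the smallest of all genes, and 0.0260 without that replicate), a value outside the rule for named genes that was singled out after it was seen. With all samples, neither *elo-2* nor any desaturase passed for the interaction, and without that replicate no desaturase did.

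Of 15 regulators of the desaturase genes, 1 rose and 3 fell with P-80 in control worms, and the median was -0.03. *pcyt-1*, a gene of phosphatidylcholine synthesis, rose by 0.33. *mdt-15*, a Mediator subunit gene needed for *fat-5*, *fat-6* and *fat-7* expression, was at -0.19 (adjusted p = 0.00707), and *skn-1*, a stress response factor gene, at -0.18. With P-80 in silenced worms *sams-1*, the S-adenosylmethionine synthetase gene, rose by 0.34 and *skn-1* fell by 0.22 on the log2 scale. Of 3 other targets of the nuclear receptor NHR-49, *cpt-5*, a carnitine palmitoyltransferase gene, rose with P-80 by 1.93 on the log2 scale (adjusted p = 3.52e-10) in control worms and 1.61 (adjusted p = 8.39e-09) in silenced worms. *acs-2*, an acyl-CoA synthetase gene, was at -0.24 with P-80 in control worms (adjusted p = 0.0469) and -0.31 with *ech-6* RNAi and vehicle, and *ech-1.1* at 0.59 with *ech-6* RNAi and P-80. Neither of the 2 sphingolipid desaturase genes was called in any of the 4 comparisons. With *ech-6* RNAi, 1 gene of the 41 was higher and 1 lower with vehicle, and 1 was higher and 3 lower with P-80. Over all genes 2.94% were called with vehicle and 0.699% with P-80. Apart from that of *elo-6*, the calls named for these lists held without replicate 3 of *ech-6* RNAi + vehicle.

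**Figure D5:**
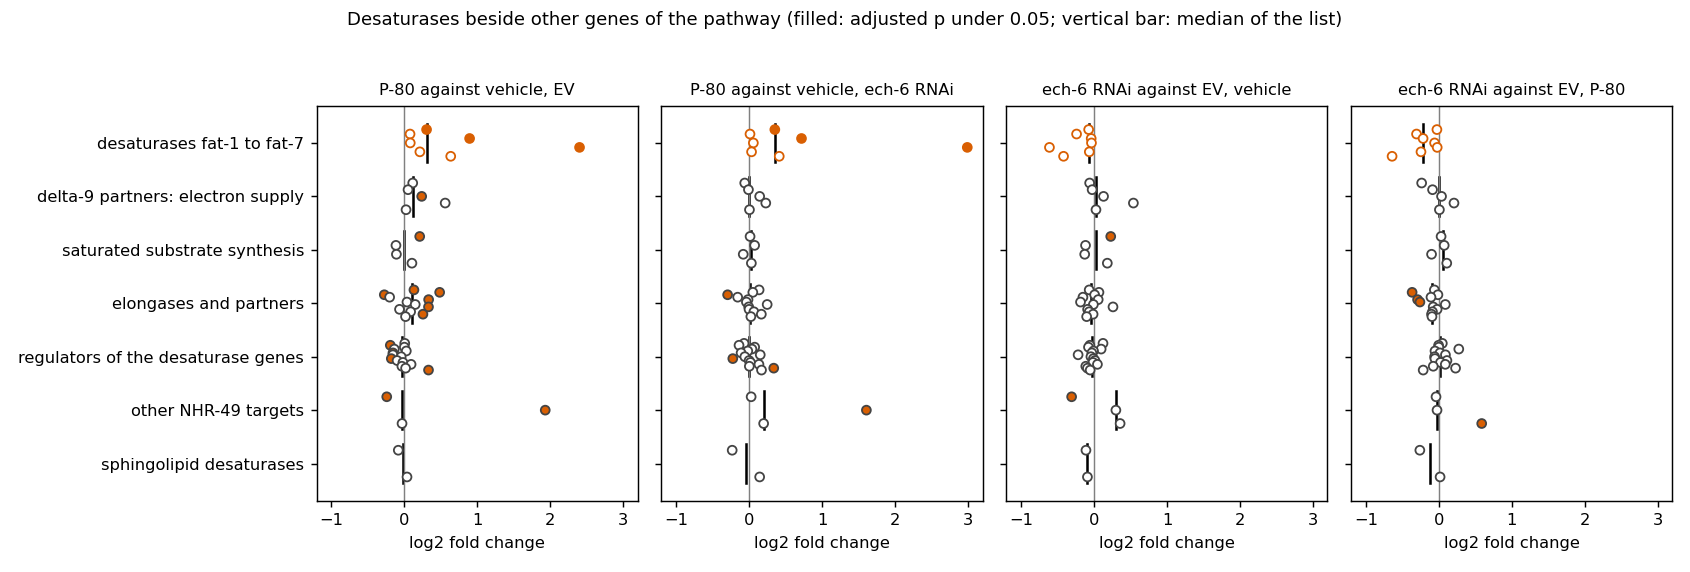
Log2 fold change (horizontal axes) of each desaturase gene (top) and of each gene in 6 related lists, in 4 comparisons; filled points have an adjusted p under 0.05 and the vertical bar is the median of a list. With P-80 the desaturases have medians of 0.31 and 0.35, and fat-5, at 2.40 and 2.99, lies farthest to the right in both.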

How the data were processed

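RNA-seq of 16 whole-worm samples was used. Reads were trimmed by the authors with Trimmomatic 0.32, mapped to the WBcel235 assembly (HISAT2 2.0.4, Ensembl release 91) and assigned to genes by strand in HTSeq 0.6.1. A gene needed over 2 counts in 4 or more samples to be kept, and edgeR's TMM scaling was applied. What was deposited is log2 CPM with a small constant added by the authors, although the header reads CPM. After the log was undone every value (100%, tolerance 0.05) was a whole number of reads times the worth of 1 read, which gave 15306307 to 28129104 reads per sample. No column was left unused.

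The log2 values were fitted in R 4.3.3 with limma 3.58.1 (1 mean per group, all 16 samples, mean-variance trend, two-sided moderated test, Benjamini-Hochberg over 19750 genes). The median standard error of a difference was 0.14. The voom weights of the authors are not in the table and were an alternative, computed on the recovered reads. Also tried were sample weights, a replicate block, the compared groups alone, log2(CPM + 1), median centring, quantile normalization, a 1 CPM filter, robust variances, no trend, and leaving out each sample. The list counts, shares, ratios and correlations without the library in which *ech-6* was not lowered were added after seeing the data. Python 3.11.15, pandas 2.3.3, scipy 1.17.1 and matplotlib 3.10.9 were used, and the fit was tested on simulated data. CPM per kb used exon lengths of Ensembl release 115 for the same assembly. Chi-square values per gene between replicates were at least 3.34, where sampling noise gives about 1, so no library was counted as a repeat of another.

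The 7 members and all lists were chosen with earlier results of these data known. Named were all members, the 2 genes most like each, *ech-6*, and at most 3 called, non-overlapping genes per list and comparison with the largest change. Any other gene was named after its values were seen.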

Additional observations from a re-analysis of the deposited data

How the results depend on the processing

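Of the changes seen under the alternatives, none touched the 6 P-80 calls of *fat-1*, *fat-3* and *fat-5*, the shares of the first-bond genes moved by less than 1 SD, and the 15 pairs correlated by r became 12 by rho, and 12 by r without replicate 3 of *ech-6* RNAi + vehicle. No member was called for *ech-6* RNAi with vehicle, but 1 was, *fat-2*, with only the groups compared, with sample weights and with the replicate block, and 0 to 1 when each replicate was left out. With P-80 the count of 0 also became 1, again *fat-2*, with voom weights, with sample weights and with the replicate block, and was 0 to 1 over the leave-outs. The replicate block gave *fat-2* -0.24 (adjusted p = 0.0188) and -0.31 (adjusted p = 0.0060), and *fat-7* -1.06 (adjusted p = 0.0429) in *ech-6* RNAi + vehicle against EV + P-80. The samples share only a number: of 24 same-numbered pairs, 6 had a correlation of deviations over 0.1 (r from -0.29 to 0.49) and 5 matched their own number best. The cause of these changes was not tested.

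The log2 fold change of *fat-6* and *fat-7* summed ranged over the leave-outs from 0.17 to 0.35 for P-80 in control worms, from -0.088 to 0.15 for P-80 in silenced worms (-0.0068 without replicate 3 of *ech-6* RNAi + vehicle), from -0.16 to 0.083 for both treatments against neither, and from -0.42 to -0.24 for RNAi alone against P-80 alone. The first and last passed without replicate 3 of EV + P-80 (adjusted p = 0.0493 and 0.0482). Each other change of sign was in a difference that passed no test. For P-80 in silenced worms, leave-outs gave *fat-2* -0.069 to 0.055 and *fat-6* -0.091 to 0.14. For *ech-6* RNAi with vehicle, centring gave *fat-4* 0.0034. For *ech-6* RNAi with P-80, *fat-1* was 0.0098 on centring and -0.065 to 0.022 over the leave-outs. *fat-5* was 0.017 with voom, 0.015 with quantile normalization, 0.014 on centring, 0.10 with sample weights and -0.28 to 0.19 over the leave-outs. The interaction of *fat-1* was -0.0022 with quantile normalization, and leave-outs gave that of *fat-4* -0.067 to 0.020 and that of *fat-7* -0.55 to 0.12. For both treatments against neither, leave-outs gave *fat-4* -0.017 to 0.050, *fat-6* -0.15 to 0.077 and *fat-7* -0.32 to 0.24, centring gave *fat-6* 0.094 and *fat-7* 0.12, quantile normalization gave *fat-7* 0.12 and log2(CPM + 1) gave *fat-7* 0.013. Depth limits *fat-5*, read 6 to 102 times a sample, and *fat-7*, read 50 to 220 times.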
